A study of Mus musculus with 48 samples.

Results

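The comparison describes what the Q140 allele of Htt did to cortical RNA in mice that carried 1 mutant copy of Msh3. It set 8 libraries labelled Q140 Msh3+/- against 8 labelled Msh3+/-, which is 16 of the 48 libraries of the study. Both groups came from the cerebral cortex of 12-month-old C57BL/6 mice, with 4 females and 4 males in each. All 16 carried the Msh3+/- genotype, so they differed by design in Htt: the Q140 Msh3+/- mice were heterozygous for the Q140 knock-in and the Msh3+/- mice had no such allele. The other 4 groups of the study are used below for comparison only: heterozygous Q140 mice, wild-type mice, Q140 Msh3-/- mice and Msh3-/- mice, with 8 libraries each. The labels do not say which part of Msh3 was removed, whether litters were shared, or how long the CAG repeat was in each mouse.

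Htt encodes huntingtin, and an expanded CAG repeat in its first exon causes Huntington disease. The Q140 line carries such an expanded repeat in the mouse gene itself, so that the mutant protein is made under the mouse promoter in every tissue that uses the gene. Msh3 encodes a DNA mismatch repair protein that takes part in recognising small DNA loops, and loss of Msh3 slows the further growth of CAG repeats in somatic cells. Cortical neurons that project to the striatum, together with the astrocytes that clear glutamate around them, are among the cells studied in this disease.

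Library totals ran from 37.7 to 57.3 M (mega) counts in Q140 Msh3+/- and from 41.6 to 58.6 M counts in Msh3+/-. Levels are CPM, counts scaled to a common normalised library total, and a log2 fold change is Q140 Msh3+/- over Msh3+/- with its standard error. A gene was called at an edgeR Benjamini-Hochberg adjusted p under 0.05. Cortical genes were abundant: Slc17a7, the vesicular glutamate transporter of cortical neurons, had 1296 to 1504 CPM in Q140 Msh3+/- and 1231 to 1451 CPM in Msh3+/-, while the striatal receptor gene Drd1 had 5.62 to 6.92 CPM in Q140 Msh3+/- and 4.77 to 7.04 CPM in Msh3+/-. Tissue neighbouring the cortex was also present. The summed level of 9 choroid plexus genes was 4.94 to 10.9 CPM in Q140 Msh3+/- and 4.57 to 631 CPM in Msh3+/-, where the male library M2 alone held 631 CPM. Meningeal genes summed to 97.3 to 677 CPM in Q140 Msh3+/- (median 465), with the lowest value in the female library F1, and to 416 to 669 CPM in Msh3+/- (median 602). Blood genes summed to a median of 5.12 CPM in Q140 Msh3+/- and 0.618 CPM in Msh3+/-. Fits without the libraries M2 and F1, and with a choroid plexus score (the mean log2 CPM of these genes) as a covariate, are given beside the calls below, and the part of blood in the gene results was not tested.

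Of the targeted genes, Htt (chromosome 5, 34761740 to 34912534, GRCm38 as are all gene positions here) had 224 to 259 CPM in Q140 Msh3+/- with a median of 242, and 245 to 272 CPM in Msh3+/- with a median of 257. The ranges overlapped, and the log2 fold change of -0.10 ± 0.036 was not called (edgeR adjusted p = 0.479). A count per gene does not separate the expanded from the normal allele. Msh3 had 54.4 to 61.2 CPM in Q140 Msh3+/- and 55.3 to 64.7 CPM in Msh3+/-, a log2 fold change of -0.05 ± 0.042 (adjusted p = 0.795). Both groups stood above the 20.5 to 23.5 CPM of wild-type libraries. They stood below the 84.2 to 108 CPM of Msh3-/- and the 83.2 to 110 CPM of Q140 Msh3-/- libraries. The count thus rose with the number of mutant copies in the labels, without overlap between these Msh3 genotypes. It did not measure loss of the gene, and the Msh3 genotypes are taken from the labels.

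Of 19547 genes tested, 10 were called, which is 0.0512% of them. The genes that rose were 7 (0.0358%): Abhd1, Cgref1, Mrpl33 and Gm2420, which lie within 5 Mb of Htt on chromosome 5, and Tmc3, Enpp6 and Anln on other chromosomes. The genes that fell were 3 (0.0153%): Atraid, also near Htt, and Ddit4l and Slc1a2 elsewhere. At an unadjusted p under 0.05 there were 1518 genes (7.77%), 741 higher (3.79%) and 777 lower (3.98%). In 12 genes (0.0614%) the 2 groups of 8 did not overlap at all, 6 higher and 6 lower in Q140 Msh3+/- (0.0307% each). They comprised 7 of the called genes (Abhd1, Gm2420, Tmc3, Cgref1, Mrpl33, Atraid and Slc1a2), then Rasgrf2, Plpp3 and Ahcyl1, Ccdc148, named after its values were seen, and 1 gene model without a proper symbol.

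The windows just before the transcription start of 5 called genes are shown because 3 of these genes sit on one stretch of chromosome 5 and 2 had the smallest adjusted p away from it. Each is the 250 bases before the start in the RefSeq table (GRCm38.p6), written 5′ to 3′ on the gene's own strand. Capitals mark CCAAT or GGGCGG boxes on either strand, and TATAAA was searched in the same way without a match in the 5. The positions are chr5:30945481-30945730 (minus strand) for Cgref1, chr5:31048390-31048639 (plus strand) for Atraid, chr5:31613701-31613950 (plus strand) for Mrpl33, chr7:83584681-83584930 (plus strand) for Tmc3 and chr8:46986637-46986886 (plus strand) for Enpp6.
Cgref1: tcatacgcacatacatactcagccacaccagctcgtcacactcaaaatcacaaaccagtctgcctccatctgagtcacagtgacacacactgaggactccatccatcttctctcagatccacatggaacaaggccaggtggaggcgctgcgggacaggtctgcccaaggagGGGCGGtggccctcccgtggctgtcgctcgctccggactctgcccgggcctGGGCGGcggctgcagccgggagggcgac
Atraid: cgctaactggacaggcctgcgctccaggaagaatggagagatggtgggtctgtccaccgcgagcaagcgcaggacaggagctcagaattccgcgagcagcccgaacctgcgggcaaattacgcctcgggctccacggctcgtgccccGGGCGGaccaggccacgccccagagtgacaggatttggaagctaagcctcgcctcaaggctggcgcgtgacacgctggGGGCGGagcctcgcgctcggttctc
Mrpl33: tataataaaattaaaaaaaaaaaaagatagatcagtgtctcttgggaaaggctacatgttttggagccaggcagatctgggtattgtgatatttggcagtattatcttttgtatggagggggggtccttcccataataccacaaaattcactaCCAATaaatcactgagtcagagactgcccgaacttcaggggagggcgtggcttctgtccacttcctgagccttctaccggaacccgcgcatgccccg
Tmc3: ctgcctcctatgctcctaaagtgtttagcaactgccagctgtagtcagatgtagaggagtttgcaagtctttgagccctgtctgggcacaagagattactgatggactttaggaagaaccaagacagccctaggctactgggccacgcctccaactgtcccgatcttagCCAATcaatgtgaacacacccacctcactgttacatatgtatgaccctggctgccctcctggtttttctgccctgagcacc
Enpp6: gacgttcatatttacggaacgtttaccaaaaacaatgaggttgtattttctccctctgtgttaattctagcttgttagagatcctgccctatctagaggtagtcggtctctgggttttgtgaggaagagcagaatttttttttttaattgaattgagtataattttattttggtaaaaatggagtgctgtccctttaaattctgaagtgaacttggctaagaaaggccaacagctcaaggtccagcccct
Cgref1 and Atraid each had 2 GGGCGG matches, Mrpl33 and Tmc3 had 1 CCAAT match each, and Enpp6 had none of the motifs. Over 32851 mouse promoter windows of the same length, 32.7% held GGGCGG, 33.8% held CCAAT and 12.4% held TATAAA. The G and C content was 62.4% before Cgref1, 66.4% before Atraid, 45.2% before Mrpl33, 51.2% before Tmc3 and 38.4% before Enpp6, against a median of 52.4% over all windows. A link between these motifs and the direction of change was not tested. Abhd1 and Gm2420 had no entry in the table, and Cgref1 had 2 starts there, of which 1 is shown. These RefSeq starts are not all those of the GENCODE gene spans given below. The Mrpl33 and Atraid windows lay inside the spans of their genes, and the Cgref1 and Tmc3 windows crossed the start of theirs.

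Of the 10 calls, 5 lay near Htt on chromosome 5. Cgref1 spans 30933143 to 30945591 there, Atraid 31048312 to 31054623 and Mrpl33 31596935 to 31664384. Abhd1, named for the alpha/beta hydrolase fold and listed as a processed transcript in GENCODE, lies at 30950066 to 30955091. It had 5.68 to 8.16 CPM in Q140 Msh3+/- (median 6.47) and 1.97 to 3.44 CPM in Msh3+/- (median 2.56). Every Q140 Msh3+/- library was above every Msh3+/- library, and the log2 fold change was 1.35 ± 0.099 (edgeR adjusted p = 1.38e-14). Cgref1, whose product is a secreted calcium-binding protein with EF hands, had 10.6 to 12.6 CPM in Q140 Msh3+/- (median 11.8) and 7.17 to 9.94 CPM in Msh3+/- (median 8.06). The groups did not overlap (0.49 ± 0.077, edgeR adjusted p = 0.000204). Mrpl33, a protein of the large subunit of the mitochondrial ribosome, had 10.99 to 12.9 CPM in Q140 Msh3+/- (median 11.6) and 8.39 to 10.03 CPM in Msh3+/- (median 8.88), again without overlap (0.37 ± 0.061, edgeR adjusted p = 0.000611).

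Gm2420 is a gene model at 32720330 to 32736194 that was close to silent without Q140. It had 0.164 to 0.585 CPM in Q140 Msh3+/- (median 0.402) and 0 to 0.12 CPM in Msh3+/- (median 0.0101), and 4 of the 8 Msh3+/- libraries had no count. The groups did not overlap, and the ratio of the mean levels was 11.8. The fitted log2 fold change of 3.62 ± 0.491 (edgeR adjusted p = 1.16e-06) depends on how zero counts are treated.

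Atraid, which encodes a membrane glycoprotein named for its induction by retinoic acid, was the called gene near Htt that fell. It had 27.6 to 32.1 CPM in Q140 Msh3+/- (median 30.8) and 33.4 to 40.2 CPM in Msh3+/- (median 37.4). The highest Q140 Msh3+/- library was below the lowest Msh3+/- library (-0.30 ± 0.04, edgeR adjusted p = 4.4e-06). Some of these genes overlap a neighbouring gene on the opposite strand, and the strand setting of the counting is not given in the sources used here. Preb shares 4239 bases with Abhd1 and was at -0.02 (adjusted p = 0.93), and Rbks shares 39946 bases with Mrpl33 and was at -0.09 (adjusted p = 0.925). Slc5a6 shares 613 bases with Atraid and was at 0.11 (adjusted p = 0.571), opposite in sign to Atraid. Mrpl33 also lies within the gene model Gm43809 on its own strand, which was too low to be tested.

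**Figure D1:**
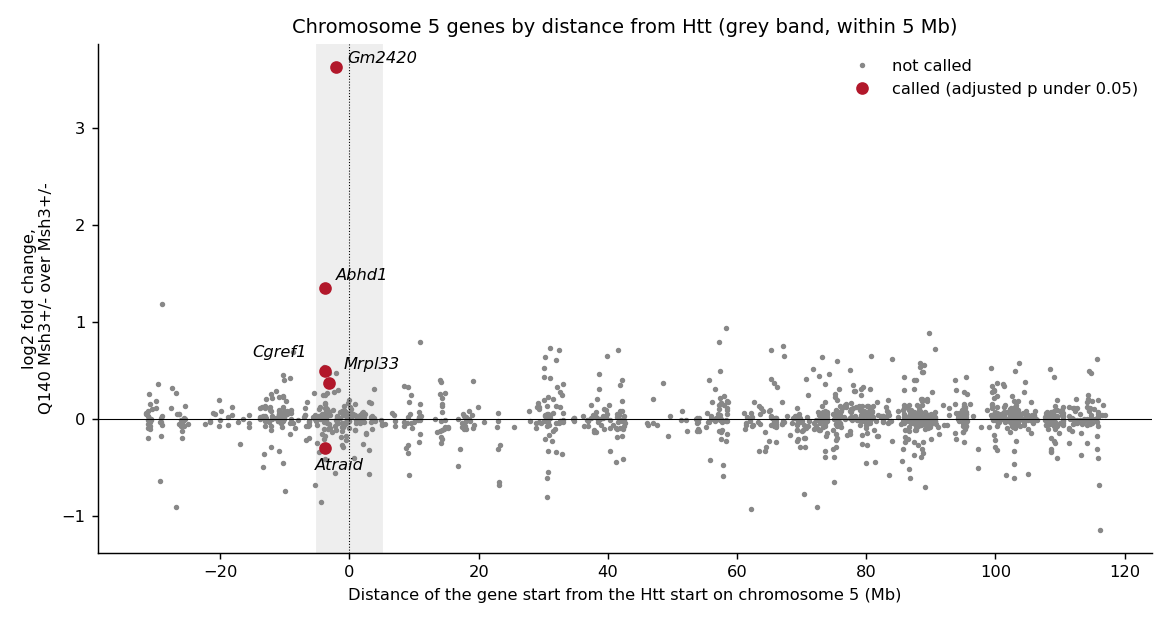
Log2 fold change (Q140 Msh3+/- over Msh3+/-, vertical axis) of every tested chromosome 5 gene against the distance of its start from the Htt start in Mb (horizontal axis, negative towards lower coordinates). The 5 called genes, in red, lie between -3.82 and -2.04 Mb, and the grey points of the remaining genes scatter around 0 along the whole chromosome.

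Read along the chromosome, the 5 linked calls lay on 1 side of Htt, between -3.82 and -2.04 Mb from its start. Within 5 Mb of Htt on either side, 5 of 148 tested genes were called (3.38%) and 22 (14.9%) had an unadjusted p under 0.05, 13 higher and 9 lower. From 5 to 20 Mb there were 187 genes, with 0 called by edgeR and 9 at an unadjusted p under 0.05 (4.81%), and none of the 22 genes called by DESeq2 lay there. From 20 to 50 Mb 0 of 202 genes were called and 19 had an unadjusted p under 0.05 (9.41%). Over 50 Mb away on chromosome 5 these were 0 and 73 (8.68%) of 841. Grid2ip on chromosome 5, named after its values were seen, was called by DESeq2 but not by edgeR (-0.31, DESeq2 adjusted p = 0.00825). On the other chromosomes 5 of 18165 genes were called (0.0275%) and 1395 had an unadjusted p under 0.05 (7.68%). Among linked genes that were not called, Khk, which encodes the fructose-phosphorylating enzyme ketohexokinase and neighbours Cgref1, had 8.29 CPM in Q140 Msh3+/- and 7.01 CPM in Msh3+/- (0.25 ± 0.078, adjusted p = 0.374). Mfsd10, a transporter gene, was at 0.19 ± 0.068, the histone methyltransferase gene Nsd2 at -0.08 ± 0.03, Nrbp1 at 0.08 ± 0.031 and the transcription-coupled repair gene Uvssa at -0.19 ± 0.077, and none of the 4 was called. DNA close to Htt is inherited with the knock-in allele, so effects of that DNA and of the expanded repeat on these genes cannot be told apart in this design.

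Away from Htt, the oligodendrocyte lineage held 2 of the 5 calls. Enpp6 (chromosome 8, 46986887 to 47096762) encodes a choline-specific phosphodiesterase and marks newly forming oligodendrocytes. It had 2.5 to 4.55 CPM in Q140 Msh3+/- (median 3.29) and 1.3 to 2.89 CPM in Msh3+/- (median 2.06). The ranges overlapped at their ends, and the log2 fold change was 0.73 ± 0.124 (edgeR adjusted p = 0.00087). Anln (chromosome 9, 22332012 to 22389188) encodes anillin, an actin-binding protein that also sits with septins in the myelin sheath. Its range was 15.8 to 24.2 CPM in Q140 Msh3+/- (median 18.2) and 11.8 to 16.1 CPM in Msh3+/- (median 14.1), with a narrow overlap (0.48 ± 0.099, edgeR adjusted p = 0.0341).

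The other genes of the lineage pointed both ways. Of 20 genes of oligodendrocyte precursors and premyelinating cells, 1 was called higher, 11 were above 0 and the median was 0.01, against 0.0029 over all genes tested. Of all genes tested, 51.4% were above 0. Zfp488, a transcriptional regulator of oligodendrocyte differentiation, was at 0.34 ± 0.094 without a call (adjusted p = 0.276). Of 24 myelin genes, 1 was called higher, and at an unadjusted p under 0.05 there were 5 higher and 3 lower (33.3% of the list, against 7.77% of all genes). Gjb1, the connexin 32 gene, was at 0.35 ± 0.118 and Tspan2, a tetraspanin of the myelin membrane, at -0.25 ± 0.067, both without a call. Plxnb3, a semaphorin receptor of oligodendrocytes, had 19.2 CPM in Q140 Msh3+/- and 15.7 CPM in Msh3+/- (0.30 ± 0.07, adjusted p = 0.0895), and the lipid transporter gene Abca8a came closest to a call (0.40 ± 0.089, adjusted p = 0.0615).

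**Figure D2:**
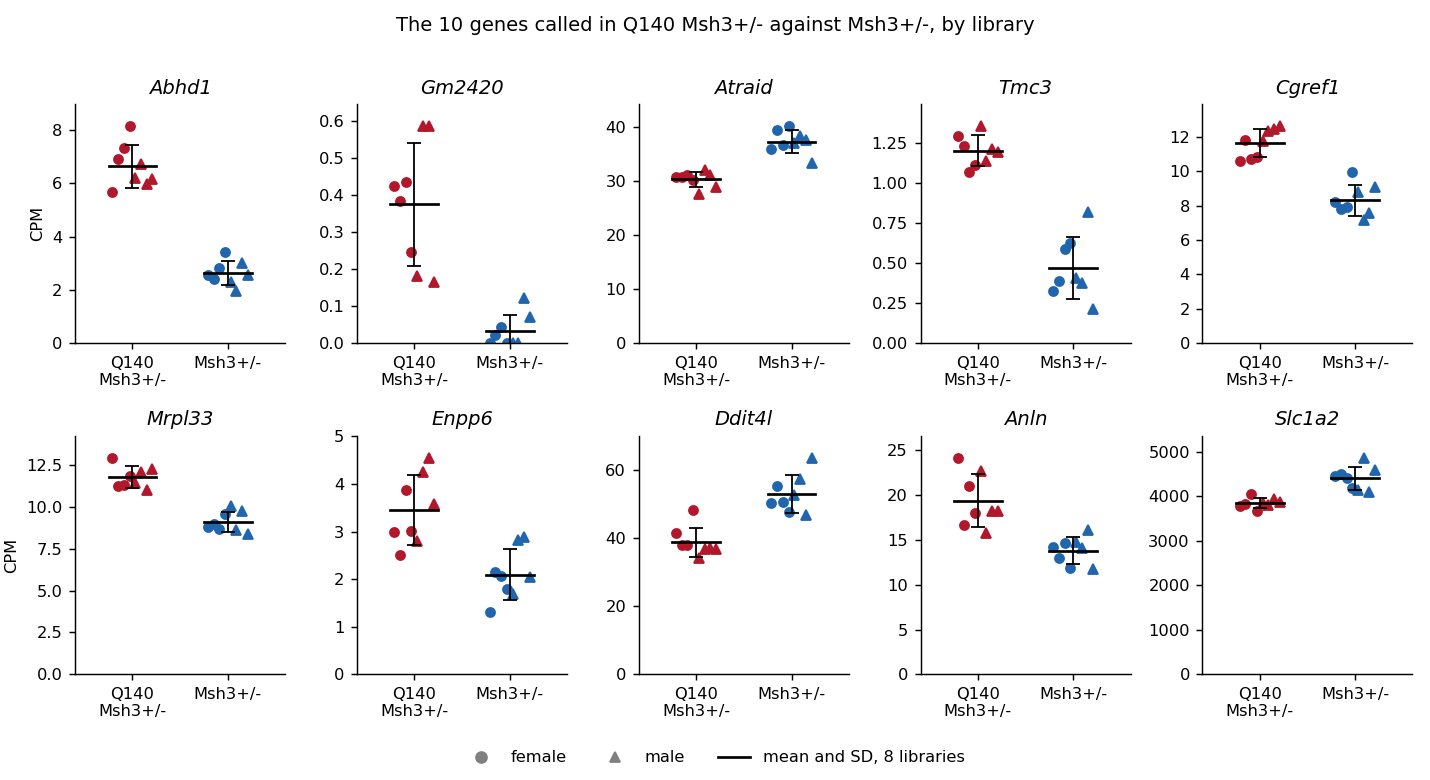
CPM (vertical axes, from 0) of the 10 called genes in each of the 8 Q140 Msh3+/- libraries (red) and 8 Msh3+/- libraries (blue); circles are females, triangles are males, bars are the mean and SD. Abhd1, Gm2420, Atraid, Tmc3, Cgref1, Mrpl33 and Slc1a2 show no overlap between the groups, while Enpp6, Ddit4l and Anln overlap at the edges.

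Tmc3 (chromosome 7, 83584927 to 83625614), a member of the transmembrane channel-like family whose relatives Tmc1 and Tmc2 serve hair cells, had the smallest adjusted p off chromosome 5. It had 1.06 to 1.35 CPM in Q140 Msh3+/- (median 1.2) and 0.212 to 0.818 CPM in Msh3+/- (median 0.397), and the groups did not overlap. The log2 fold change was 1.36 ± 0.185 (edgeR adjusted p = 6.29e-06). Tmc3 overlaps the antisense gene Gm16638 over 28567 bases, and that gene was at 0.0045 (adjusted p = 0.995). Of the 6 tested members of the family list, Tmc3 alone was called, and 3 were above 0.

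Ddit4l (chromosome 3, 137621612 to 137628333), also known as REDD2, encodes an inhibitor of the growth kinase complex mTORC1. Its range was 34.1 to 48.2 CPM in Q140 Msh3+/- (median 37.5) and 46.9 to 63.7 CPM in Msh3+/- (median 51.6). A single Q140 Msh3+/- library reached into the Msh3+/- range (-0.45 ± 0.09, edgeR adjusted p = 0.0218). Among 19 genes of mTORC1 regulation, Ddit4l was the call, and 13 lay below 0 with a median of -0.03. Rragd, a GTPase that brings mTORC1 to the lysosome, was at -0.11 ± 0.039 without a call.

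Slc1a2 (chromosome 2, 102658659 to 102790784) encodes GLT-1, the main glutamate transporter of astrocytes. It had 3679 to 4053 CPM in Q140 Msh3+/- (median 3835) and 4086 to 4867 CPM in Msh3+/- (median 4438). The groups did not overlap, although the difference was small, at -0.19 ± 0.041 on the log2 scale (edgeR adjusted p = 0.0381). The astrocyte list mostly lay below 0. Of its 20 genes, 1 was called, 16 were below 0 and the median was -0.09. At an unadjusted p under 0.05 there were 8 lower and 0 higher (40.0% of the list, against 7.77% of all genes). Without the Msh3+/- library M2 and the Q140 Msh3+/- library F1, 15 were below 0, 6 of them at an unadjusted p under 0.05 (median -0.06). Glul, glutamine synthetase, which converts the glutamate taken up into glutamine, averaged 1541 ± 98.3 CPM in Q140 Msh3+/- and 1725 ± 51.7 CPM in Msh3+/- (SD, n = 8 each; -0.16 ± 0.039, adjusted p = 0.107). Gja1, the connexin 43 gene, was at -0.16 ± 0.047 and the bicarbonate cotransporter gene Slc4a4 at -0.13 ± 0.04. Plpp3, a lipid phosphatase gene abundant in astrocytes, had 186 to 221 CPM in Q140 Msh3+/- and 224 to 254 CPM in Msh3+/-, without overlap but also without a call (-0.17 ± 0.04, adjusted p = 0.107). In whole cortex, fewer cells of a type and less RNA per cell cannot be told apart. Of 11 genes of reactive astrocytes, 0 were called, and at an unadjusted p under 0.05 there was 1 in each direction.

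The calls differed in how far they depended on single libraries. Abhd1, Gm2420, Atraid, Tmc3, Cgref1, Mrpl33 and Enpp6 were called in all 16 fits that left out 1 library. The call of Ddit4l ended in 8 of the 16 (highest adjusted p = 0.093), those without Q140 Msh3+/- F2, F3, M1, M3 or M4 or without Msh3+/- F2, M2 or M4. Anln kept its call in 6, without Q140 Msh3+/- F2, F4 or M2 or without Msh3+/- F3, M1 or M3 (highest adjusted p = 0.129). Slc1a2 kept its call in 4, without Q140 Msh3+/- F3 or without Msh3+/- F4, M1 or M3 (highest adjusted p = 0.148). Without the Msh3+/- library M2, which held the choroid plexus RNA, 7 genes were called, and Ddit4l was at -0.43 (adjusted p = 0.0686), Anln at 0.49 (0.0555) and Slc1a2 at -0.17 (0.148). With the choroid plexus score as a covariate 8 genes were called, 7 of them among the 10, and without both Msh3+/- M2 and Q140 Msh3+/- F1 7 were called. These fits too ended the calls of Ddit4l (adjusted p = 0.0719 with the covariate and 0.1002 without both libraries), Anln (0.0992 and 0.134) and Slc1a2 (0.397 and 0.191).

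Neuronal lists gave 0 calls, with small shifts that had different signs by layer. Of 12 layer 6 genes, 9 were above 0 with a median of 0.13. At an unadjusted p under 0.05 there were 5 (41.7%, against 7.77% of all genes), all higher. Foxp2, a transcription factor of corticothalamic neurons, had 8.32 CPM in Q140 Msh3+/- and 6.34 CPM in Msh3+/- (0.38 ± 0.143), Rprm was at 0.34 ± 0.137 and the heparan sulfotransferase gene Hs3st4 at 0.14 ± 0.066. Without the Msh3+/- library M2 the median of the layer 6 projection neuron list was 0.15, with 2 members at an unadjusted p under 0.05. Of 16 upper-layer genes, 12 were below 0 with a median of -0.06. At an unadjusted p under 0.05 there were 4 (25%, against 7.77% of all genes), all lower. Rasgrf2, a Ras exchange factor of the most superficial neurons, had 220 to 258.4 CPM in Q140 Msh3+/- and 258.5 to 297 CPM in Msh3+/-, which just did not overlap (-0.19 ± 0.044, edgeR adjusted p = 0.0895). Lamp5 was at -0.24 ± 0.064 and Stard8 at -0.17 ± 0.05. Of 13 layer 5 genes, 9 were above 0 and the median was 0.07, or 0.04 without the Msh3+/- library M2, and of 20 interneuron genes 13 were below 0 with a median of -0.03.

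Genes of calcium/calmodulin kinase signalling, which carries the response of synapses to calcium, had 11 of 14 members below 0 and a median of -0.04. At an unadjusted p under 0.05 there were 5 lower and 0 higher (35.7%, against 7.77% of all genes), and 0 were called. In the fit without the Msh3+/- library M2 and the Q140 Msh3+/- library F1, 9 of 14 were below 0 (median -0.04). Of these, 4 had an unadjusted p under 0.05. Camk2n1, an inhibitor of the kinase, had 1945 to 2283 CPM in Q140 Msh3+/- (median 2182.4) and 2235 to 2675 CPM in Msh3+/- (median 2405), and the ranges overlapped (-0.16 ± 0.039, edgeR adjusted p = 0.116). Camk2a, the alpha subunit, was at -0.10 ± 0.033 without a call. Of 25 potassium channel genes 6 were lower and 1 was higher at an unadjusted p under 0.05 (28%, against 7.77% of all genes). Kcna1 was at -0.20 ± 0.074 and Kcnma1, the large-conductance channel, at -0.13 ± 0.044. Kcnmb4, a subunit that modulates that channel, was at 0.18 ± 0.045. Penk, which encodes the enkephalin precursor, had 24.8 CPM in Q140 Msh3+/- and 30.7 CPM in Msh3+/- (-0.31 ± 0.075, adjusted p = 0.125). Tfrc, the transferrin receptor gene, was at -0.27 ± 0.064 and Chdh, choline dehydrogenase, at 0.57 ± 0.136, also without a call.

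**Figure D3:**
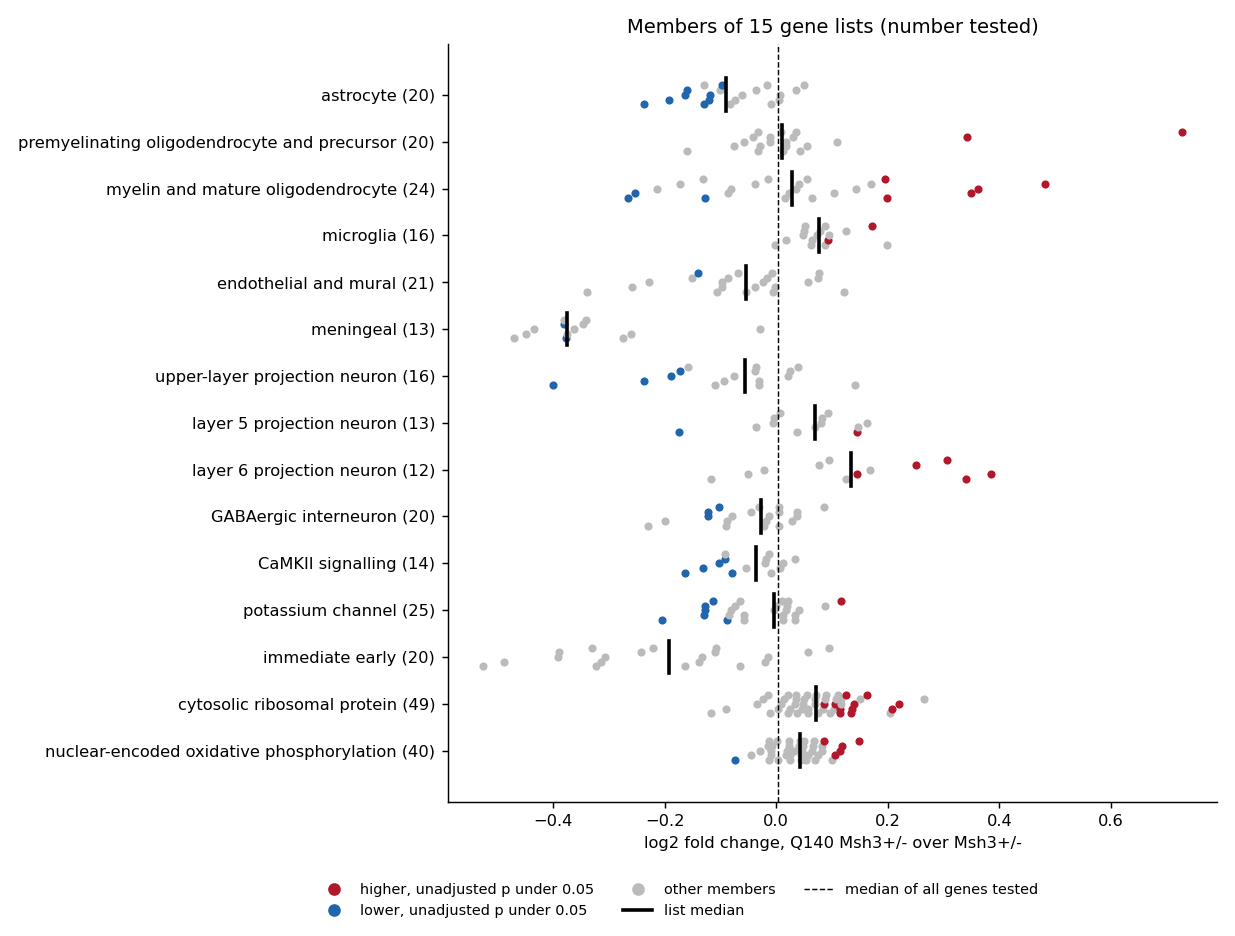
Log2 fold change (horizontal axis) of each tested member of 15 gene lists, 1 row per list with the number tested; red and blue points had an unadjusted p under 0.05, black ticks are list medians and the dashed line is the median of all genes tested. Astrocyte genes lie mostly to the left (median -0.09), layer 6 genes and cytosolic ribosomal protein genes mostly to the right (0.13 and 0.07), and myelin genes on both sides.

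The cytosolic ribosomal protein genes, which encode the protein part of the ribosome, had 43 of 49 members above 0 and a median of 0.07. None was called, and 11 (22.4%) had an unadjusted p under 0.05, all higher. Over all genes tested, 51.4% were above 0 and 7.77% had an unadjusted p under 0.05. Rplp1 had 157 CPM in Q140 Msh3+/- and 143 CPM in Msh3+/- (0.14 ± 0.048), without a call. Ribosomal protein genes have many near-identical pseudogenes, and how shared reads were counted is not given in the sources used here. With the plate row of each library as a further term, 2 cytosolic ribosomal protein genes had an unadjusted p under 0.05 and the median was 0.05. Without the Msh3+/- library M2 and the Q140 Msh3+/- library F1, 15 had an unadjusted p under 0.05 and the median was 0.09. Nuclear-encoded genes of oxidative phosphorylation had 31 of 40 above 0 (median 0.04), and with the plate row term 23 of 40 (median 0.02). Without M2 and F1, 36 of 40 were above 0 (median 0.06). Mitochondrial ribosomal protein genes had 31 of 57 above 0 (median 0.024) with Mrpl33 as the call, and the median was 0.0094 without the Msh3+/- library M2 and 0.011 with the plate row term. Microglial genes had 15 of 16 above 0 with a median of 0.08 and 0 calls, and a median of 0.04 with the plate column term. Without M2 and F1, 16 of 16 were above 0 (median 0.12), and 5 had an unadjusted p under 0.05.

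Immediate early genes, which neurons switch on within minutes of activity, had 18 of 20 below 0 and a median of -0.19, yet none had an unadjusted p under 0.05. Their median had the opposite sign in Q140 against wild type (0.18) and in Q140 Msh3-/- against Msh3-/- (0.14). Genes of the p53 response (14), interferon response (15), heat shock and chaperones (21), cholesterol synthesis (24), glutamate receptors (22) and synaptic vesicles (22) had 0 calls and medians between -0.03 and 0.02. The glutamate receptor list had 4 genes higher and 2 lower at an unadjusted p under 0.05 (27.3%, against 7.77% of all genes). With the plate column term 1 was higher and 1 lower, and without Msh3+/- M2 and Q140 Msh3+/- F1 there were 1 higher and 2 lower. Of 12 mismatch repair genes 0 were called. Exo1, the exonuclease of that pathway, had 0.635 CPM in Q140 Msh3+/- and 1.08 CPM in Msh3+/- (-0.72 ± 0.204, adjusted p = 0.295). All 9 choroid plexus genes were below 0 with an unadjusted p under 0.05, 0 were called, the median was -1.86, and without the Msh3+/- library M2 the median was -0.45. The 13 meningeal genes were all below 0 (median -0.37), and without M2 and the Q140 Msh3+/- library F1 the median was -0.19 with 12 below 0. The 4 tested blood genes were all above 0 (median 1.72), and of 3 pituitary genes 2 were below 0 (median -2.22). Endothelial and mural genes had 17 of 21 below 0 (median -0.05), and without M2 and F1 11 of 21 (median -0.0022). Neuropeptide genes had 13 of 18 below 0 (median -0.05), and neither list had a call. Striatal, hippocampal and thalamic neuron genes had 0 calls as well, and medians between -0.04 and 0.04.

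The Q140 effect was also compared between the sexes within the 16 libraries. No gene was called for the difference of males minus females by edgeR (0 of 19547, with 1530 at an unadjusted p under 0.05, 7.83%) or by DESeq2 (0, with 1571). Tested within a sex, 4 against 4 libraries, 3 genes were called in males (0.0153%) and 1 in females (0.00512%). Enpp6 was at 0.70 ± 0.188 in males and 0.75 ± 0.212 in females, Tmc3 at 1.46 ± 0.267 in males and 1.26 ± 0.272 in females, and Slc1a2 at -0.19 ± 0.049 in males and -0.20 ± 0.049 in females. Ddit4l had the widest gap among the called genes outside chromosome 5, at -0.60 ± 0.084 in males and -0.30 ± 0.085 in females, a difference of -0.30 ± 0.119 (unadjusted p = 0.0209, edgeR adjusted p = 0.609). Its direction was down in both sexes.

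Some lists had unlike medians in the sexes, given here as a description. Immediate early genes had a median of 0.05 in males and -0.41 in females. Astrocyte genes had -0.05 in males and -0.15 in females, where Gja1 was at -0.08 ± 0.05 in males and -0.25 ± 0.05 in females (unadjusted p of the difference = 0.0246, edgeR adjusted p = 0.627). Cytosolic ribosomal protein genes had 0.14 in males and 0.03 in females, and mitochondrially encoded genes -0.12 in males and 0.22 in females. Meningeal genes moved with sex as well, at -0.17 in males and -0.60 in females, and the Q140 Msh3+/- library of lowest meningeal level was a female. The part of meningeal tissue in the other differences was not tested.

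**Figure D4:**
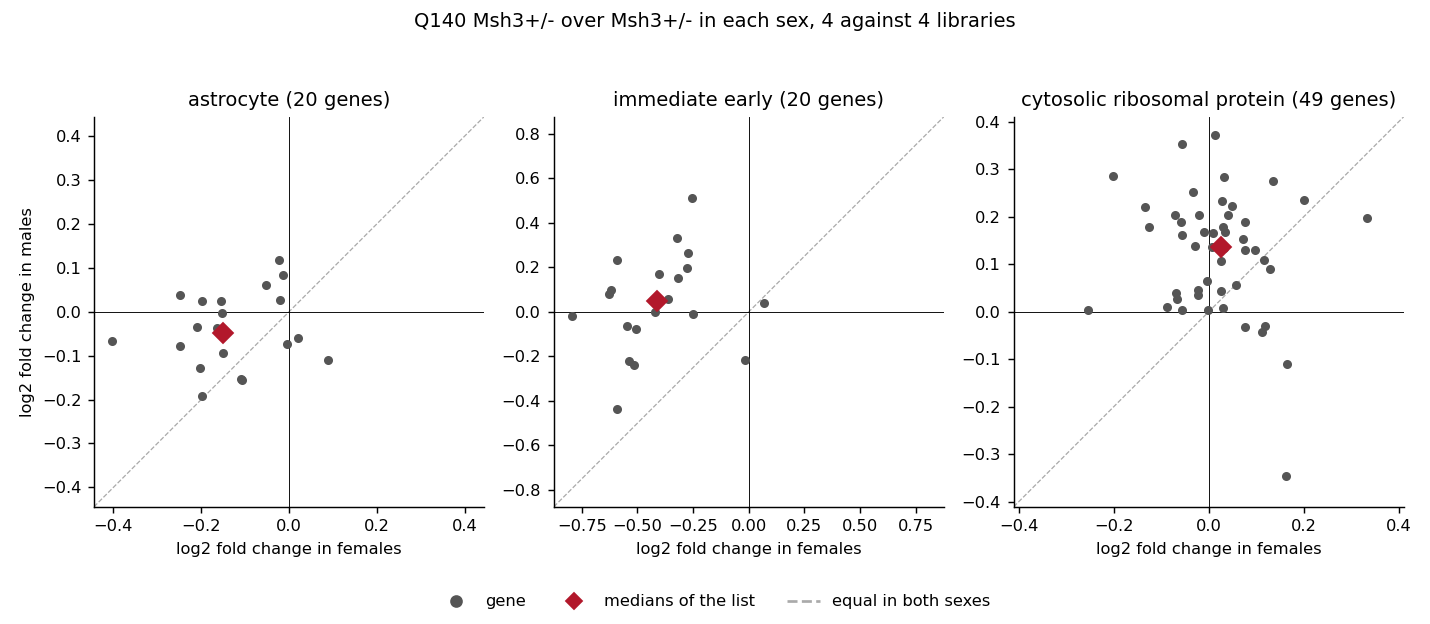
Log2 fold change of Q140 Msh3+/- over Msh3+/- in males (vertical axes) against females (horizontal axes), 4 against 4 libraries in each sex, for the members of 3 lists; red diamonds are the medians and the dashed line marks equal values. Immediate early genes lie left of 0 in females (median -0.41) and around 0 in males (0.05), and ribosomal protein genes lie above 0 in males (0.14).

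The same allele was studied on 2 other Msh3 genotypes, in Q140 against wild type (20 genes called, 0.102%) and in Q140 Msh3-/- against Msh3-/- (4 called, 0.0205%). These comparisons share no library with each other or with the one on Msh3+/-. All 10 genes called on Msh3+/- had the same sign in both. Of the 1487 genes over 20 Mb from Htt with an unadjusted p under 0.05 on Msh3+/-, 1148 (77.2%) had the same sign in Q140 against wild type and 988 (66.4%) in Q140 Msh3-/- against Msh3-/-. Over all tested genes those shares were 59.5% and 53.4%. Some list medians kept their sign in these comparisons, taken in the same order. Astrocyte genes had -0.09 and -0.08, and cytosolic ribosomal protein genes 0.06 and 0.08. Immediate early genes had the opposite sign in both, as given above. Layer 6 genes, at 0.13 on Msh3+/-, had 0.08 and -0.02, and microglial genes, at 0.08 on Msh3+/-, had -0.01 and 0.00072.

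The test of the difference itself gave 0 calls for both pairs. The Q140 effect on Msh3+/- minus that on Msh3+/+ had 0 genes called by edgeR and by limma voom, with 646 (3.3%) and 630 at an unadjusted p under 0.05. The Q140 effect on Msh3+/- minus that on Msh3-/- also had 0 by both, with 982 (5.02%) and 900 at an unadjusted p under 0.05. The numbers of called genes in the 3 comparisons therefore do not show that the effect of Q140 differs with Msh3 genotype.

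Gene by gene, the linked calls and Tmc3 kept their sign on the 3 genotypes. Abhd1 was at 1.01 ± 0.096 on Msh3+/+, 1.35 ± 0.099 on Msh3+/- and 1.16 ± 0.094 on Msh3-/-, and the effect on Msh3+/- minus that on Msh3+/+ was 0.34 ± 0.142 (unadjusted p = 0.0186, edgeR adjusted p = 0.999). Tmc3 was at 1.36 ± 0.172 on Msh3+/+, 1.36 ± 0.185 on Msh3+/- and 1.30 ± 0.22 on Msh3-/-. Its level was 0.428 to 1.08 CPM in Q140 Msh3-/- (median 0.78) and 0.124 to 0.566 CPM in Msh3-/- (median 0.295), beside the higher ranges on Msh3+/- given above. Slc1a2 was at -0.21 ± 0.041 on Msh3+/+, -0.19 ± 0.041 on Msh3+/- and -0.15 ± 0.041 on Msh3-/-, and Glul at -0.17 ± 0.039 on Msh3+/+, -0.16 ± 0.039 on Msh3+/- and -0.16 ± 0.039 on Msh3-/-.

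Enpp6, Anln and Zfp488 had smaller values on Msh3-/-. Enpp6 had 2.5 to 4.55 CPM in Q140 Msh3+/- and 2.07 to 3.48 CPM in Q140 Msh3-/-, while the groups without Q140 had 1.3 to 2.89 CPM in Msh3+/- and 1.68 to 2.8 CPM in Msh3-/-. Its log2 fold change was 0.96 ± 0.12 on Msh3+/+, 0.73 ± 0.124 on Msh3+/- and 0.22 ± 0.127 on Msh3-/-, and the effect on Msh3+/- minus that on Msh3-/- was 0.50 ± 0.178 (unadjusted p = 0.00674, edgeR adjusted p = 0.919). Anln was at 0.45 ± 0.096 on Msh3+/+, 0.48 ± 0.099 on Msh3+/- and 0.10 ± 0.098 on Msh3-/-, and the effect on Msh3+/- minus that on Msh3-/- was 0.38 ± 0.14 (unadjusted p = 0.00971, adjusted p = 0.919). Zfp488 was at 0.49 ± 0.091 on Msh3+/+, 0.34 ± 0.094 on Msh3+/- and -0.03 ± 0.096 on Msh3-/- (Msh3+/- minus Msh3-/- 0.37 ± 0.135, unadjusted p = 0.00855, adjusted p = 0.919). None of these differences held up after adjustment over all genes. Tbata, at 0.49 ± 0.12 on Msh3+/- and -0.11 ± 0.121 on Msh3-/-, had an unadjusted p of 0.000864 for the difference and the same adjusted p of 0.919. Enpp6, Anln and Tbata were named for a small p on Msh3+/-, which by itself favours a larger value there.

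Ddit4l was at -0.58 ± 0.09 on Msh3+/+, -0.45 ± 0.09 on Msh3+/- and -0.27 ± 0.09 on Msh3-/-, and Camk2n1 at -0.31 ± 0.039 on Msh3+/+, -0.16 ± 0.039 on Msh3+/- and -0.15 ± 0.039 on Msh3-/-. For Camk2n1 the effect on Msh3+/- minus that on Msh3+/+ was 0.15 ± 0.056 (unadjusted p = 0.00898, edgeR adjusted p = 0.999). Genes with a larger value on Msh3+/- than on either other genotype also occurred. Ptp4a3, a phosphatase gene, was at 0.15 ± 0.038 on Msh3+/-, against -0.02 ± 0.038 on Msh3+/+ and 0.0083 ± 0.038 on Msh3-/-, and Ppp1r14a, which encodes a phosphatase inhibitor, at 0.44 ± 0.115 on Msh3+/-, against 0.03 ± 0.108 on Msh3+/+ and 0.02 ± 0.11 on Msh3-/-. The effect of Q140 on Msh3+/- minus that on Msh3+/+ was 0.16 ± 0.053 for Ptp4a3 (unadjusted p = 0.00362, edgeR adjusted p = 0.999), and neither gene was called on any of the 3 genotypes. Both genes were named for a small p on Msh3+/-, which by itself favours a larger value there. The p of the difference reuses those values.

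**Figure D5:**
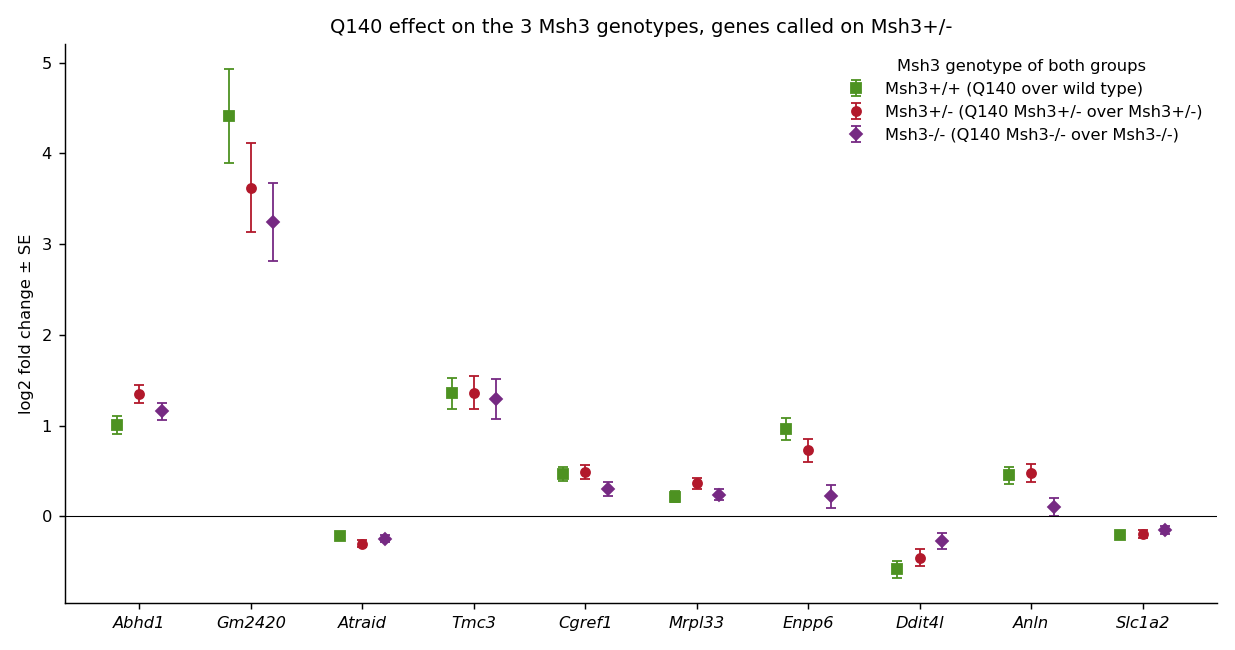
Log2 fold change with SE (vertical axis) of the 10 genes called on Msh3+/-, for Q140 over its control on Msh3+/+ (green squares), Msh3+/- (red circles) and Msh3-/- (purple diamonds), 8 libraries per group. Tmc3 has nearly equal values on the 3 genotypes (1.36, 1.36 and 1.30), whereas Enpp6 and Anln stand lower on Msh3-/- (0.22 and 0.10).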

How the data were processed

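RNA from mouse cerebral cortex was sequenced in 48 libraries, 8 in each of 6 genotypes. The authors deposited whole-number counts per Ensembl gene, per the file headers, and these counts were used without the deposited FPKM. Per the submitters' processing notes, the tools were STAR 2.7.5c, SAMtools 1.10 and HTSeq 0.12.3, and GRCm38 and mm10 are given as genome builds; what each was used for is not recorded there. The strand setting of the counting and the annotation release are not given in the sources used here. Per the labels' protocols, the RNA extraction text speaks of striatum at a younger age, whereas the labels of every sample give cortex at 12 months, which was taken as correct. The labels number the libraries of a group as replicates within each sex without saying that each is 1 mouse, so p-values measure the spread between these libraries, which may be technical.

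From the counts, 19547 of 48795 genes were kept by filterByExpr (minimum count 10, minimum total 15). Gene positions are those of GENCODE M21. One edgeR 4.0.16 quasi-likelihood model (R 4.3.3, TMM normalisation, 6 groups and sex) was fitted to all 48 libraries, with a gene called when its Benjamini-Hochberg adjusted p was below 0.05. The sex difference used the 16 libraries alone. Limma 3.58.1 and DESeq2 1.42.0 served as alternatives. CPM use the normalised library totals, and the standard errors hold both counting error and the spread between libraries.

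The comparison, the 34 gene lists, which held 617 tested genes, and the rule for named genes were chosen with earlier results of these data known. That rule takes Htt and Msh3, every called gene, the 15 rising and 15 falling genes of smallest p with a mean of at least 1 CPM in the higher group, the 3 members of smallest p in each list, the 10 of smallest p within 20 Mb of Htt, and genes called in Q140 against wild type. Of these, genes with an unadjusted p of 0.05 or more enter only the counts, apart from Htt and Msh3. Some genes that the rule names are not reported here.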

Additional observations from a re-analysis of the deposited data

Results flagged for a closer look

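In groups of 8 libraries, a library was singled out when its gap to the nearest other library exceeded 0.526 of the whole range of its group. Over 80 gene and list profiles tested, 5 met this, and chance alone gives about 1 in 20. Ttr, the most abundant choroid plexus gene here, had 576 CPM in the Msh3+/- library M2, against 16.9 CPM in the next library. The choroid plexus genes together summed to 631 CPM in that library, against 25.4 CPM in the next. Pituitary genes summed to 3.68 CPM in the Q140 Msh3+/- library M1 (next 1.69) and to 14.0 CPM in the Msh3+/- library M1 (next 4.88). Striatal projection neuron genes summed to 1927 CPM in the Q140 Msh3+/- library F4, against 1848 CPM in the next.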

How the results depend on the processing

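Besides the 16 fits without 1 library, which gave 7 to 14 calls, 16 alternatives were run, of which the one without libraries high in choroid plexus genes removes Msh3+/- M2 alone and is thus also among the first 16. They gave 7 to 13 calls with edgeR or limma and 22 with DESeq2 (12 higher, 10 lower, all 10 of the edgeR calls among them). The further DESeq2 calls include Rasgrf2, Abca8a, Penk, Ptp4a3, Glul, Plpp3, Tfrc, Tbata and Plxnb3. Abhd1, Atraid, Cgref1, Mrpl33 and Enpp6 were called in all 16, and Gm2420 and Tmc3 in the 15 that kept them above the filter. Ddit4l was called in 11, Anln in 10 and Slc1a2 in 6. Fitting plate column gave 13 calls, 9 of them shared with the 10, and plate row 9, with 8 shared. Limma voom gave 8 calls without a block and 8 with the library name prefix as a random block, and both ended the calls of Anln and Slc1a2. A replicate block gave 11 calls, of which 8 were shared with the 10, and ended those of Ddit4l and Slc1a2 (adjusted p = 0.0619 for both); the replicate numbers were not taken to pair the libraries, because 1 of 8 pair correlations was over 0.1 (range -0.163 to 0.193) and 2 of 8 libraries correlated best with their own number. Slc4a5, a choroid plexus gene at -3.499, was at 0.35 with the choroid plexus score as a covariate. The pituitary gene Prl, at -2.22, ranged from -3.73 to 0.19 when 1 library was left out, and was at 0.19 without the Msh3+/- library M1; the cause was not tested. The fit without both Msh3+/- M2 and Q140 Msh3+/- F1, chosen after seeing the data, gave 7 calls. Gm2420 and Slc4a5 lie near the limit of what these depths can count.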
